A study of Oncorhynchus mykiss with 24 samples.

Results

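The proteasome and ubiquitin pathway was described with the 338 expressed sequence tags (ESTs, partial cDNA sequences spotted on the array) whose description contained the word proteasome or ubiquitin and not ribosomal, out of 16028 ESTs on the array. They carried 119 different descriptions and lay on 339 spots. Of these ESTs, 264 passed the filter on dim features and were among the 11653 features tested. Of the remaining 74, 72 were too dim and 2 had values on too few arrays. The array was a salmonid 2-colour cDNA array, and each of the 24 arrays carried whole-embryo RNA of 2 rainbow trout embryos, 48 in all.

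The embryos came from repeated backcrossing in which the Clearwater clonal line (CW, a YY male line with fast embryonic development) was introgressed into the Oregon State University clonal line (OSU, an XX female line with slow development). The rest of the genome was thus mostly OSU in every embryo, and a chromosome region with a strong effect on development rate (a quantitative trait locus, QTL) was OSU/CW in some embryos and OSU/OSU in the others. Rearing was at 11 °C, with sampling at 15, 19 and 28 days post fertilization (dpf), with hatching beginning at the last point. Each time point held 8 arrays and 16 embryos, 4 for each combination of sex and genotype, and the 2 embryos on 1 array shared sex and age but differed in genotype. Sex had been typed with a Y chromosome marker and QTL genotype with linked microsatellites, neither of which is a feature on the array, so the labels could not be checked from expression. RNA came from whole embryos, in which fewer cells of a type and less RNA per cell cannot be told apart.

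Ubiquitin is a small protein that is joined to other proteins by a relay of enzymes: an E1 activates it, an E2 conjugating enzyme carries it, and an E3 ligase chooses the protein that receives it. Deubiquitinases remove it again. Chains of ubiquitin direct a protein to the proteasome, in which a 20S core of alpha and beta rings holds the proteolytic sites and a 19S regulatory particle recognises, unfolds and deubiquitinates the substrate. In jawed vertebrates, immune signals exchange some catalytic beta subunits for immunoproteasome subunits such as beta types 8 and 9, and PA28 activators can replace the 19S particle. SUMO proteins are related modifiers that change the partners of a protein rather than marking it for degradation.

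By role, 41 ESTs described subunits of the alpha ring (38 tested), 31 constitutive subunits of the beta ring (24), 10 immunoproteasome subunits (8), 42 subunits of the 19S particle (36) and 20 activators, assembly factors or inhibitors (14). There were 59 ESTs of E2 conjugating enzymes (49 tested), 47 of E3 ligases (29), 34 of deubiquitinases (22), 45 of ubiquitin and related modifiers (40) and 9 others (4). No EST of an E1 enzyme was among them. Roles followed the descriptions on the array, so ESTs described as 26S regulatory subunits 5, 9 and 10 counted with the 19S particle. Values are log2 intensities after background correction and normalisation, a difference of 1 is a factor of 2, and a feature was called differentially expressed at a limma p-value below 0.05 after Benjamini-Hochberg adjustment over all 11653 features.

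Signal over local background moved with age. Its median per channel lay between 1.18 and 1.83 at 15 dpf, between 1.20 and 3.07 at 19 dpf and between 1.75 and 4.83 at 28 dpf. A channel counted as above the negative controls when the spot exceeded the 90th percentile of the 1003 negative control spots of that channel, and 33 of the 264 tested members did so in all 48 channels. A total of 7 members reached the filter's 16 channels mainly through 28 dpf, and 1 did so through 19 dpf. The 7 had at least 8 of 16 channels at 28 dpf and fewer than 8 at the earlier times together. These members stayed in the counts below, so the counts of rises at 28 dpf are not free of the filter. How many of the 7 were among the rises is not given. Marker genes of tissues also moved with age. The 45 tested lens ESTs had a median difference of 2.04 between 28 and 15 dpf (41 higher and 2 lower), the 86 muscle ESTs 1.97 (73 higher), the 53 red blood cell ESTs -0.40 (5 higher and 21 lower) and the 91 liver ESTs 0.20 (21 higher and 14 lower). The part of signal strength or of tissue make-up in the differences between time points was not tested.

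The comparison of time points asked how the pathway was expressed as embryos went from the eyed stage to hatching. Between 15 and 28 dpf, 97 of the 264 members were differentially expressed, 71 lower and 26 higher at 28 dpf. That was 36.7% of the members against 37.2% of all features, so the share of calls stood near the background. By direction, 26.9% of members were lower against 19.0% of all features, and 9.85% were higher against 18.2%. For 5 members (1.89%, against 2.79% of all features) the embryos of the 2 ages did not overlap at all, namely CA055879, CB496882, CB497139, CB493483 and CB510732. The median difference was -0.08 for the members and 0.00 for all features. Without scaling between arrays (loess alone), the median of all features moved to -0.54 and that of the members to -0.70. In that setting 125 members were lower (47.3%, against 38.6% of all features) and 5 higher (1.89%, against 3.73%). The share of lower calls among called members thus went from 73.2% to 96.2%, and most calls over all features were lower too. The 5 higher ones with loess alone were CB496882, CB497139, CB493483, CB510732 and CK991268, and the other rises given below were not called in that setting. Without background subtraction 58 members were called, and differences were mostly smaller. Of the members 17% were then lower and 4.92% higher, against 13.4% and 12.9% of all features. From 15 to 19 dpf 8 members were called, 3.03% against 2.50% of all features. Of these 6 were higher (background 2.21%) and 2 lower (background 0.283%). From 19 to 28 dpf 53 were called, 20.1% against 16.1%, of which 13 were higher (background 7.47%) and 40 lower (background 8.63%). The share of lower calls among called members in that interval was 75.5%, and it was 97.9% with loess alone and 56.7% with signals minus background centred per channel. With loess alone 54.2% of members were lower and 1.14% higher, against 40.1% and 1.24% of all features. With centred signals 6.44% of members were lower and 4.92% higher, against 5.23% and 7.61% of all features. Of the 71 members that were lower at 28 than at 15 dpf, 56 exceeded the negative controls in at least 8 of 16 channels at both ages, as did 13 of the 26 that were higher. The direction of the 97 calls was the same in the group means of OSU/CW females and of OSU/CW males for all 97, and for 94 in OSU/OSU females and 94 in OSU/OSU males. These groups are the same embryos as in the test and are no separate evidence.

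**Figure D1:**
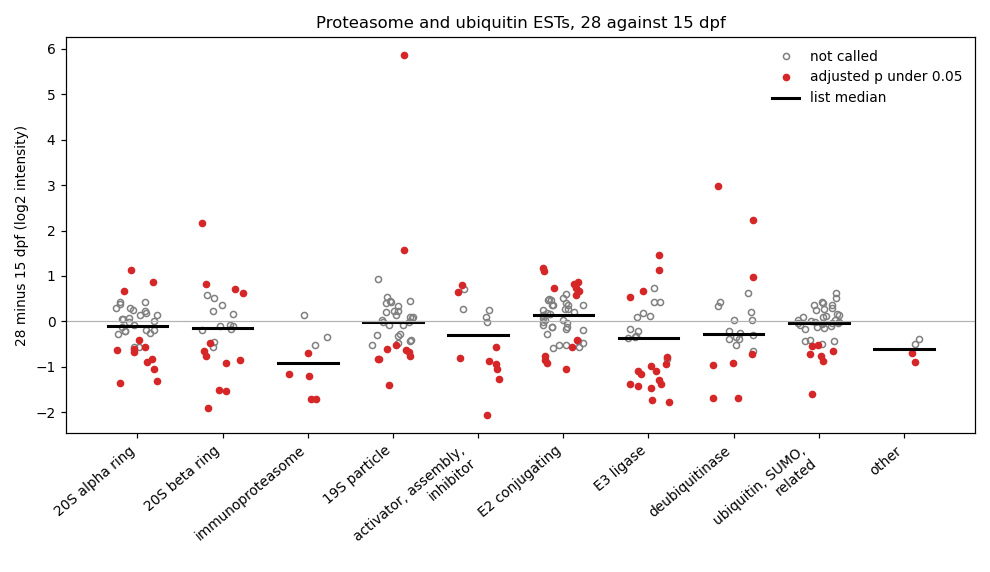
Difference between 28 and 15 dpf (vertical axis, log2 intensity) for each of the 264 tested ESTs, grouped by role; red points passed the limma test at an adjusted p below 0.05, open points did not, and black bars are list medians. The immunoproteasome list lies lowest among the proteasome lists with a median of -0.92, the E2 list has a median of 0.15, and 1 EST of the 19S particle stands at 5.86.

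In the alpha ring of the 20S core, which gates entry to the proteolytic chamber, 3 of 38 ESTs rose and 10 fell between 15 and 28 dpf. That was 7.89% and 26.3%, against 18.2% and 19.0% of all features. The median was -0.10 and the range from -1.36 to 1.13. Alpha type 6 had the largest fall of the list. CA055879 was at 10.86, 11.34 and 11.85 (lowest, median and highest embryo of 12) at 15 dpf, at 10.07, 10.82 and 11.68 at 19 dpf and at 8.55, 9.99 and 10.65 (12 embryos) at 28 dpf. No embryo at 28 dpf reached the lowest one at 15 dpf, and the difference was -1.36 ± 0.23 (SE; limma adjusted p = 2.1e-05). It exceeded the negative controls in 9 of 16 channels at 15 dpf and in 8 of 16 at 28 dpf. A second alpha type 6 EST, CA062750, fell by 0.68 ± 0.17 (limma adjusted p = 0.00132). For alpha type 7, 4 of 6 ESTs fell and 0 rose, the largest fall being that of CA050766 (-1.31 ± 0.29, limma adjusted p = 0.0006). Alpha type 2 went both ways, with 2 of 9 ESTs up and 2 down. CA038358 was at 12.71, 13.15 and 13.66 at 15 dpf and already at 13.12, 13.88 and 14.35 at 19 dpf, a rise of 0.70 (limma adjusted p = 0.0289) that stood at 0.67 at 28 dpf (limma adjusted p = 0.00332). The call at 19 dpf was lost when any 1 of 8 arrays was left out (values from 0.63 to 0.79). Here and below, a range in brackets beside such a count covers all arrays left out in turn, including fits that kept the call. CA043402 rose by 1.38 between 15 and 19 dpf (limma adjusted p = 0.0159) and stood 1.13 above 15 dpf at 28 dpf (limma adjusted p = 0.00671), from 3 of 16 channels above the negative controls to 13 of 16. Its call at 19 dpf was lost without array 41 of the 15 dpf males (1.10), and both its calls without background subtraction. None of the 3 ESTs of alpha type 5 was called, and their differences lay between -0.28 and 0.39.

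In the constitutive beta ring, which carries the active sites, 4 of 24 ESTs rose (16.7%, against 18.2% of all features) and 8 fell (33.3%, against 19.0%). The median was -0.14. Beta type 7, the trypsin-like subunit, accounted for 6 of the 8 falls, and 6 of its 7 tested ESTs fell. CA059360 was at 10.88, 11.82 and 13.38 at 15 dpf, at 10.02, 11.37 and 13.17 at 19 dpf and at 9.0, 9.85 and 11.08 at 28 dpf. The groups at 15 and 28 dpf overlapped only between 10.88 and 11.08, and the difference between them was -1.91 ± 0.28 (limma adjusted p = 9.6e-07), of which -1.48 came after 19 dpf (limma adjusted p = 0.00039). CA055375 and CN442539 fell by 1.53 and 1.52, CA060063 by 0.92, CB511841 by 0.77 and CA051549 by 0.65. The call of CB511841 was lost without any 1 of 8 arrays (-0.92 to -0.59) and that of CA051549 without array 37 of the 28 dpf males (-0.51) or without background subtraction (-0.39). The tested beta type 7 EST that was not called had a difference of -0.16. Both tested ESTs of beta type 3, a structural subunit, rose, by 0.72 (BU965861, limma adjusted p = 0.0245) and 0.83 (CB493627, limma adjusted p = 0.0141). The first call was lost without any 1 of 4 arrays (0.56 to 0.82) and the second without array 14 of the 15 dpf females (0.60), and both without background subtraction. The 2 ESTs of beta type 2 were not called, at -0.11 and 0.22.

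Beta type 5, the chymotrypsin-like subunit, gave an uneven picture over 5 ESTs. CA060271 fell by 0.85 ± 0.19 (limma adjusted p = 0.00067), while CK991268 was higher by 2.17 ± 0.59 (limma adjusted p = 0.00423). CK991268 split by array at 28 dpf: on the 5 arrays 26, 28, 33, 37 and 39 both embryos lay between 14.21 and 15.17, and on arrays 23 (9.90 and 10.22) and 38 (10.36 and 10.51) both lay below all embryos measured at 19 dpf, of which the lowest was 11.35. The 12 embryos measured at 15 dpf lay between 10.01 and 12.28. Both embryos of an array moved together, so array and embryo pair cannot be told apart here. Without arrays 23 and 38 the difference was 3.51, and it was called with and without them. The call of CA060271 was lost without background subtraction (-0.38). The other 3 ESTs of beta type 5 were not called.

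The immunoproteasome subunits had the lowest median of the proteasome lists, -0.92 over 8 ESTs. At 28 dpf 5 were lower (62.5%, against 19.0% of all features) and 0 higher (against 18.2%). Beta type 8 EST CA048585 was at 10.15, 11.33 and 13.25 at 15 dpf, at 8.26, 10.66 and 11.70 at 19 dpf and at 8.37, 9.62 and 11.21 at 28 dpf. The embryos of the first and last ages overlapped, and the fall was 1.72 on the log2 scale, ± 0.31 (limma adjusted p = 2.7e-05). CA062737 and CA061622, also beta type 8, fell by 1.21 (limma adjusted p = 0.00038) and 1.15 (limma adjusted p = 0.0011). For CA062737 a fall of 0.97 was already called at 19 dpf (limma adjusted p = 0.0433), a call that leaving out any 1 of 12 arrays removed. Beta type 8 EST CA049968 was not called, with 0.13. For beta type 9, CA064302 fell by 1.70 ± 0.33 (limma adjusted p = 8.8e-05), of which -1.33 came after 19 dpf, CA051193 fell by 0.69 (limma adjusted p = 0.0486) and CA051372 was not called (-0.34). The call of CA051193 was lost without any 1 of 17 arrays (-0.79 to -0.55), without background subtraction (-0.32) and with centred signals (-0.69). At 28 dpf CA048585 and CA062737 exceeded the negative controls in 5 of 16 channels each, against 8 of 16 each at 15 dpf, so that at 28 dpf most channels lay within the range of the negative controls.

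In the 19S regulatory particle, 2 of 36 ESTs rose (5.56%, against 18.2% of all features) and 8 fell (22.2%, against 19.0%), with a median of -0.01. CB496882, described as non-ATPase subunit 12, a scaffold protein of the lid, was at 7.77, 8.88 and 9.78 at 15 dpf, at 9.68, 10.92 and 12.93 (12 embryos) at 19 dpf and at 14.25, 14.67 and 15.10 at 28 dpf. No embryo at 28 dpf overlapped with any at an earlier age. The difference was 2.40 from 15 to 19 dpf (limma adjusted p = 2.7e-07), 3.46 from 19 to 28 dpf (limma adjusted p = 4.7e-12) and 5.86 ± 0.26 over the whole interval (limma adjusted p = 6.9e-20). It exceeded the negative controls in 0 of 16 channels at 15 dpf, 12 of 16 at 19 dpf and 16 of 16 at 28 dpf. The 15 dpf level was also raised in each channel to that of spots just above the negative controls. Under the main processing CB496882 was then 15.2-fold higher at 28 dpf (14.68 against 10.76, a log2 difference of 3.93). The measured mean at 15 dpf was 8.82. Without background subtraction the difference over the whole interval was 3.37 and that from 15 to 19 dpf 0.81, both still called. As 3.37 is below 3.93, the 15.2-fold value is no lower bound over the alternatives. The other 2 tested ESTs with the same description were not called. CB494252 differed by 0.41 (limma adjusted p = 0.145) and CB515805 by -0.07 (limma adjusted p = 0.84).

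Non-ATPase subunit 14 is the deubiquitinase of the 19S lid. CB497139 was at 12.02, 12.42 and 13.37 at 15 dpf, at 12.23, 13.00 and 13.36 at 19 dpf and at 13.62, 14.09 and 14.35 at 28 dpf. All embryos at 28 dpf were above all embryos at both earlier ages, whose ranges overlapped with each other. The rise was 1.56 ± 0.18 from 15 to 28 dpf (2.94-fold, limma adjusted p = 4.9e-09), of which 1.14 came after 19 dpf (limma adjusted p = 1e-05). Among the other 3 ESTs of this name, CB511562 fell by 0.60 (limma adjusted p = 0.0138) and CB492588 and CB518102 were not called (0.22 and -0.01). The call of CB511562 was lost without background subtraction (-0.37) and with centred signals (-0.50). Subunit 1, a scaffold of the base, had 3 of 4 ESTs lower, CA770072 (-1.41), CA059152 (-0.83) and CA059942 (-0.62). At 28 dpf CA770072 split over the same arrays as CK991268, with 8.26 to 9.64 on arrays 23 and 38 and 11.78 to 12.39 on the other 6 arrays. Without these arrays its difference was -0.63 and was not called. The call of CA059942 was lost without array 26 of the 28 dpf females (-0.51). Of 4 ESTs of subunit 6, 0 were called and the differences lay between -0.07 and 0.43.

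Among activators, assembly factors and inhibitors, 7 of 14 ESTs fell (50%, against 19.0% of all features) and 2 rose (14.3%, against 18.2%). Their median was -0.29. Activator subunit 3 (PA28 gamma, a nuclear activator) fell in all 3 tested ESTs. CB487670 was at 11.08, 12.39 and 13.92 at 15 dpf, at 10.24, 11.43 and 13.36 at 19 dpf and at 9.31, 10.32 and 11.43 (14 embryos) at 28 dpf. The first and the last age overlapped between 11.08 and 11.43, and the difference was -2.06 ± 0.25 (4.18-fold, limma adjusted p = 2.2e-08). CA062443 fell by 1.04 ± 0.18 (limma adjusted p = 1.8e-05), with 16 of 16 channels above the negative controls at both ages. CB517754 fell by 0.81 (limma adjusted p = 0.0188), a call that was lost without array 38 of the 28 dpf females (-0.70) and without background subtraction (-0.52). PA28 alpha (activator subunit 1) went both ways, with CB492563 up by 0.65 (limma adjusted p = 0.0258) and CB493852 down by 0.93 (limma adjusted p = 0.00611). Of 4 ESTs of PA28 beta (activator subunit 2), CA051522 fell by 1.28 (limma adjusted p = 4.8e-05) and the other 3 were not called. Proteasome maturation protein, the chaperone that is consumed as core particles form, had 1 EST up (CB498670, 0.80, limma adjusted p = 0.00782) and 1 down (CA059951, -0.56, limma adjusted p = 0.0196) of 4. The inhibitor PI31 (DN048046) fell by 0.88 (limma adjusted p = 0.0384). Leaving out 1 array ended the call of CB492563 for 4 arrays, that of CA059951 for 3 and that of DN048046 for 7. Over all arrays left out in turn, CB492563 lay between 0.53 and 0.75 and CA059951 between -0.64 and -0.48. DN048046 lay between -1.19 and -0.56. Without background subtraction CB492563, CB493852, CB498670, CA059951 and DN048046 were not called.

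**Figure D2:**
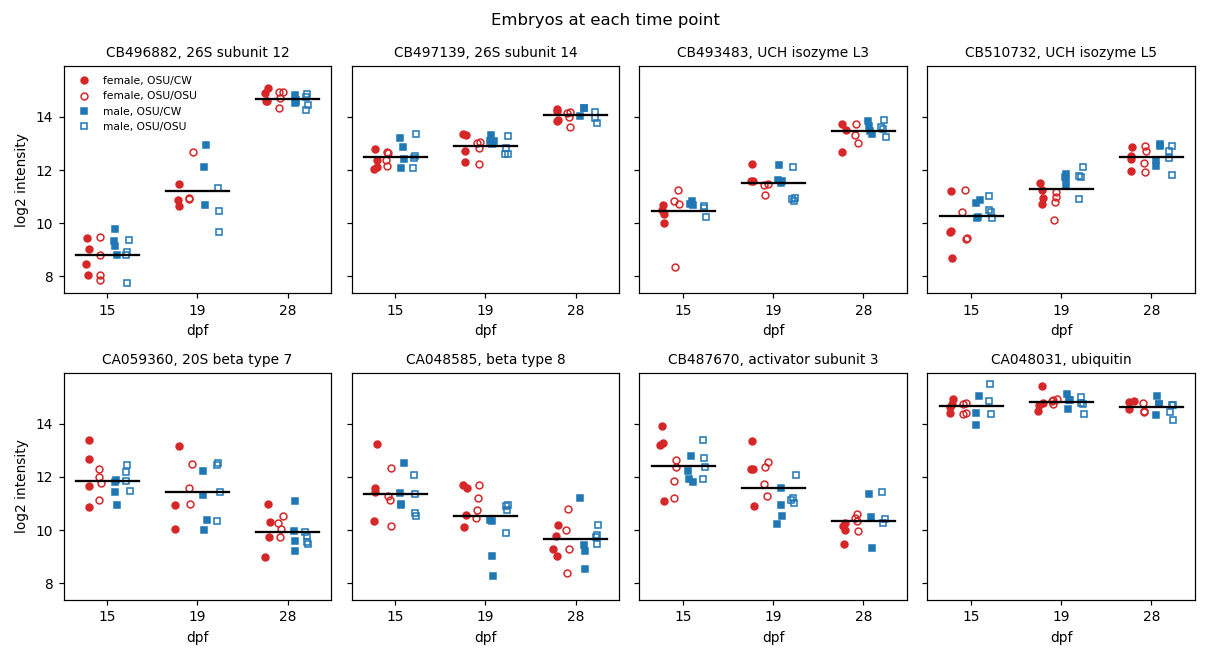
Log2 intensity of each embryo (vertical axis) at 15, 19 and 28 dpf (horizontal axis) for 8 ESTs; red circles are females, blue squares males, filled symbols OSU/CW, open symbols OSU/OSU and bars the mean of all embryos at that age. In CB496882 the embryos climbed from between 7.77 and 9.78 to between 14.25 and 15.10, whereas the ubiquitin EST CA048031 stayed at means of 14.66, 14.82 and 14.62.

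Of the E2 conjugating enzymes 8 of 49 ESTs rose between 15 and 28 dpf (16.3%, against 18.2% of all features) and 6 fell (12.2%, against 19.0%). Their median was 0.15. E2 D4, of the promiscuous E2 D family, had 3 of 5 ESTs higher. CA045638 was at 8.96, 10.16 and 11.34 at 15 dpf, at 9.52, 10.68 and 11.70 at 19 dpf and at 10.91, 11.39 and 11.77 at 28 dpf, a rise of 1.18 ± 0.24 (limma adjusted p = 0.00014), and it went from 6 to 15 of 16 channels above the negative controls. CA053284 rose by 0.59 (limma adjusted p = 0.00776) and CB508919 by 0.73 (limma adjusted p = 0.0168), the latter not without array 14 of the 15 dpf females (0.58). For CB508919 the difference of females minus males was -1.19 at 15 dpf (not called). At 28 dpf it was 0.74 in OSU/CW and 0.81 in OSU/OSU embryos. The rise of CB508919 in the mean over sexes may thus describe neither sex. Both ESTs of E2 E1 rose, by 0.66 (CA056463, limma adjusted p = 0.0405) and 0.82 (CB510952, limma adjusted p = 0.00432), from 3 and 2 of 16 channels above the negative controls at 15 dpf. The call of CA056463 was lost without any 1 of 9 arrays (0.57 to 0.80). E2 G1 went both ways. CB507931 was at 9.68, 10.47 and 11.16 at 15 dpf and at 10.82, 11.62 and 12.15 at 28 dpf, a rise of 1.10 ± 0.23 (limma adjusted p = 0.00021). In the mean over sexes and genotypes this rise lay after 19 dpf (1.11). At 19 dpf itself the difference of females minus males was -1.2 (not called), so the mean may describe neither sex. CA060609 fell by 0.77 (limma adjusted p = 0.00381). For E2 N, the enzyme of lysine 63-linked chains, CA054529 fell by 1.04 (limma adjusted p = 0.00042) and the other 5 ESTs were not called. The 5 ESTs of E2 C, which works with the anaphase-promoting complex in mitosis, lay between -0.56 and 0.37 and were not called over this interval, although CK990595 fell by 0.86 between 19 and 28 dpf (limma adjusted p = 0.0163). For E2 D2, CA050947 exceeded the negative controls in 0 of 16 channels at 15 dpf, so no fold is given for it. No rise remained when its values at 15 dpf were set to at least the lowest level above background (-0.01). CA050947 passed the filter mainly through 28 dpf and is nevertheless 1 of the 8 E2 rises. Its measured difference of 0.73 was not called when any 1 of 10 arrays was left out (0.61 to 0.88). Without background subtraction CA050947 (0.34), CA053284 (0.23), CB508919 (0.32) and CA056463 (0.32) were not called, so at least 4 of the 8 E2 rises rested on that step. The value of the E2 variant 1 EST among the 8 is not given for that setting.

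The E3 ligases had 13 of 29 ESTs lower at 28 dpf (44.8%, against 19.0% of all features) and 4 higher (13.8%, against 18.2%), with a median of -0.37. The largest fall was that of HACE1, a HECT ligase, whose EST CA059052 was at 11.66, 12.63 and 14.04 at 15 dpf, at 10.45, 11.84 and 13.36 at 19 dpf and at 10.17, 10.77 and 12.48 (12 embryos) at 28 dpf. The ranges overlapped, and the difference was -1.78 ± 0.30 (limma adjusted p = 1.7e-05). Hakai, a RING ligase known in mammals for targeting E-cadherin, fell by 1.74 ± 0.26 (CB511586, limma adjusted p = 1.8e-06). EDD1, a large HECT ligase, fell by 1.17 ± 0.17 (CA064468, limma adjusted p = 9.6e-07), with 16 of 16 channels above the negative controls at both ages. LNX (CK991080, -1.46), RNF14 (CB514013, -1.42), RNF167 (CA064023, -1.37) and MARCH3 (CA054557, -1.30) also fell. Among those that rose were RNF138 (CA044187, 1.45 ± 0.27, limma adjusted p = 4.9e-05) and HECTD2 (CA056843, 1.13 ± 0.31, limma adjusted p = 0.00449), which exceeded the negative controls in only 3 and 1 of 16 channels at 15 dpf and in 13 and 11 at 28 dpf, so that their levels at 15 dpf lay mostly within the range of the negative controls. Praja2 and WWP2 each had 1 EST lower (CA052980, -1.39, and CA056583, -1.09) and 1 higher (CB499235, 0.67, and CA057567, 0.53). Both WWP2 ESTs had already been called at 19 dpf, at -0.89 (limma adjusted p = 0.0159) and 0.74 (limma adjusted p = 0.0303). These calls at 19 dpf were lost when any 1 of 3 arrays was left out for CA056583 (-1.0 to -0.74) and any 1 of 6 for CA057567 (0.67 to 0.83), as was the call of CA057567 at 28 dpf for 6 arrays (0.45 to 0.61). TRIM63, the muscle ligase MuRF1, had 2 tested ESTs, at -0.35 and 0.73, and neither was called between 15 and 28 dpf. Without background subtraction CA054557, CA056843, CB499235 and CA057567 were not called.

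Deubiquitinases had 3 of 22 ESTs higher (13.6%, against 18.2% of all features) and 5 lower (22.7%, against 19.0%), with a median of -0.28. UCHL3, a hydrolase of small ubiquitin adducts, rose in CB493483. This EST was at 8.34, 10.67 and 11.24 (14 embryos) at 15 dpf, at 10.82, 11.54 and 12.22 at 19 dpf and at 12.66, 13.51 and 13.89 at 28 dpf. The first and last ages did not overlap, and the rise was 1.03 by 19 dpf (limma adjusted p = 0.0243) and 2.97 ± 0.27 by 28 dpf (limma adjusted p = 4.2e-11). It exceeded the negative controls in 3, 13 and 16 of 16 channels at 15, 19 and 28 dpf, so that most values at 15 dpf lay within their range and no fold is given. The call at 19 dpf was lost without array 34 (1.0) or 41 (1.05) of the 15 dpf males or array 40 of the 19 dpf females (0.96). The other UCHL3 EST tested, CA054134, was not called (0.43 ± 0.41).

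UCHL5, a deubiquitinase that binds the 19S particle, moved in opposite directions in 2 ESTs. CB510732 was at 8.71, 10.32 and 11.26 at 15 dpf, at 10.12, 11.33 and 12.12 at 19 dpf and at 11.81, 12.50 and 12.98 at 28 dpf, a rise of 2.24 ± 0.23 (limma adjusted p = 2.5e-10) without overlap of the first and last ages. With 5, 12 and 16 of 16 channels above the negative controls at the 3 ages, no fold is given for it either. CA061492 was at 10.84, 11.79 and 12.95 at 15 dpf and at 9.08, 10.19 and 11.21 at 28 dpf, a fall of 1.68 ± 0.31 (limma adjusted p = 7.1e-05). The remaining 3 UCHL5 ESTs were not called (0.03, 0.34 and 0.63). Among ubiquitin-specific proteases, USP48 (CB511877, -1.68 ± 0.29, limma adjusted p = 1.9e-05) and USP47 (CA052742, -0.92, limma adjusted p = 0.00189) fell and USP28 (CA053821, 0.98, limma adjusted p = 0.00413) rose. UCHL1, the abundant neuronal hydrolase, fell in CA053740 (-0.73, limma adjusted p = 0.00898), and its other 2 ESTs lay at -0.66 and -0.38 without passing the test. Without background subtraction CA052742 and CA053740 were not called.

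Of 20 ESTs described as ubiquitin 19 were tested, and by limma 0 were called in any comparison of time points. At an unadjusted p below 0.05 there were 3 between 15 and 28 dpf (46.2% of all features) and 1 between 19 and 28 dpf (30.4% of all features). Their differences between 28 and 15 dpf lay between -0.49 and 0.51 with a median of 0.02. The EST CA048031 had means of 14.66, 14.82 and 14.62 at 15, 19 and 28 dpf. The highest raw signals of the 19 ESTs reached between 26605 and 52050. Of the SUMO ESTs, 1 of 4 of SUMO-1 fell (CA049845, -1.59 ± 0.26, limma adjusted p = 8.8e-06), as did 1 of 5 of SUMO-2 (CA059724, -0.54, limma adjusted p = 0.0065) and 1 of 5 of SUMO-3 (CB499213, -0.77, limma adjusted p = 0.00479), and the others of these names were not called. The only EST described as SUMO-3-A was also called lower (-0.51). The call of CA059724 was lost without background subtraction (-0.26). In the whole list of ubiquitin and related modifiers 7 of 40 ESTs fell (17.5%, against 19.0% of all features) and 0 rose (against 18.2%). Both ESTs of UFD1, a partner of the p97 segregase, fell, by 0.90 (CA055522, limma adjusted p = 0.00013) and 0.70 (CA063694, limma adjusted p = 0.00723).

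ESTs of 1 name could differ. Of 58 names with at least 2 tested ESTs, 11 had both an EST called higher and an EST called lower at 28 than at 15 dpf. Another 11 had 2 or more calls all in 1 direction and 12 had no call. Matching counts for same-named ESTs over all features were not made, so these counts do not set the pathway apart. The names were those of the array's design. Salmonids carry many duplicated genes, and which gene copy each EST matches was not determined.

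**Figure D3:**
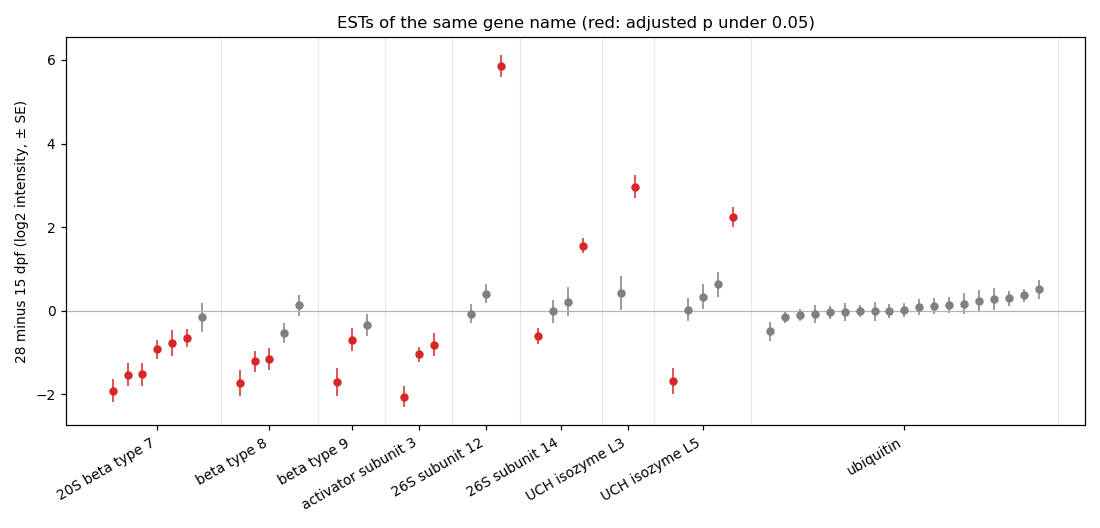
Difference between 28 and 15 dpf (vertical axis, log2 intensity, points with SE) for every tested EST of 9 gene names, sorted within each name; red points had an adjusted p below 0.05. All 3 ESTs of activator subunit 3 and 6 of 7 of beta type 7 lie below 0 in red, 26S subunit 12 has 1 EST at 5.86 and 2 near 0, and the 19 ubiquitin ESTs lie between -0.49 and 0.51.

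Genes of the pathway whose descriptions lack both words gave the following counts between 15 and 28 dpf, where 18.2% of all features rose and 19.0% fell. Of 21 ESTs of 19S ATPases, which carry protease names, 0 rose and 4 fell, with a median of -0.10. Among 22 ESTs of cullin-RING ligase parts 5 rose and 1 fell (median 0.09), among 13 of the COP9 signalosome, which removes NEDD8 from cullins, 4 rose and 3 fell (0.02), and among 8 of the anaphase-promoting complex 2 rose and 4 fell (-0.43). SUMO and NEDD8 genes without the word ubiquitin had 1 of 21 up and 10 down (-0.57), and shuttle factors and the p97 segregase 3 of 12 up and 4 down (-0.06).

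The comparison of the sexes asked whether female and male embryos differed in the pathway. With the embryos of both genotypes and all ages together, 0 of 264 members differed at an adjusted p below 0.05, as did 0% of all features; 4 members (1.52%) had an unadjusted p below 0.05, against 4.06% of all features. At 15 dpf 0 members were called (0.00858% of all features) and 12 had an unadjusted p below 0.05, at 19 dpf 0 were called (0%) and 21 did, and at 28 dpf 0 were called (0.00858%) and 6 did. These shares were 4.55%, 7.95% and 2.27% of the members against 6.18%, 8.78% and 3.35% of all features. The median SE of a difference between the sexes at 15 dpf was 0.34 over the members. Over all ages, the smallest p-values belonged to E2 variant 1 (CA046013, -0.51 ± 0.17, negative values meaning lower in females), subunit 11 of the 19S particle (CA050491, 0.40 ± 0.16) and UCHL5 (CB510732, -0.44 ± 0.19), each with a limma adjusted p of 0.998.

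At 15 dpf the member with the smallest p was CB508919 (E2 D4), which had been picked out with earlier results of these data known. The 8 females were at 9.45 (lowest), 10.74 (median) and 11.31 (highest) and the 8 males at 11.36, 11.50 and 12.54. The sexes did not overlap, and the difference was -1.19 ± 0.33 (limma adjusted p = 0.583). At 28 dpf the order was turned, with 6 females at 11.95, 12.19 and 12.42 and 8 males at 10.59, 11.49 and 11.84, again without overlap. At 19 dpf the sexes overlapped, with females at 9.43, 10.94 and 11.92 and males at 10.13, 11.69 and 12.09. Whether the sex difference changed with age was tested by limma, with an adjusted p of 0.563 for CB508919. Of the 264 members 2 did not overlap between the sexes at 15 dpf (0.335% of all features), 0 at 19 dpf (0.601%) and 1 at 28 dpf (0.240%). The second at 15 dpf was subunit 11 EST CB493974, with 6 females at 11.91, 12.37 and 12.68 and 4 males at 10.96, 11.08 and 11.35 (1.23 ± 0.34, limma adjusted p = 0.608). Proteasome maturation protein CB498670 was lower in females at 15 dpf by 1.17 ± 0.34 (limma adjusted p = 0.608). At 19 dpf E2 G1 EST CB507931 was at 8.36, 10.00 and 11.30 in females and at 10.49, 11.18 and 11.65 in males (-1.20 ± 0.32, limma adjusted p = 0.416), activator subunit 3 EST CB487670 at 10.90, 12.30 and 13.36 in females and at 10.24, 11.08 and 12.06 in males (1.01 ± 0.34, limma adjusted p = 0.45) and CA050491 differed by 0.79 ± 0.27 (limma adjusted p = 0.451). At 28 dpf the leading members were E2-25 kDa (CB516518, -1.01 ± 0.35), HERC6 (CA052560, -1.31 ± 0.50) and E2 N (CB494043, -0.92 ± 0.40), each with a limma adjusted p of 1. The value for CB494043 was -0.31 without array 36 of the females and that for CA052560 was -0.67 without array 33 of the males.

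**Figure D4:**
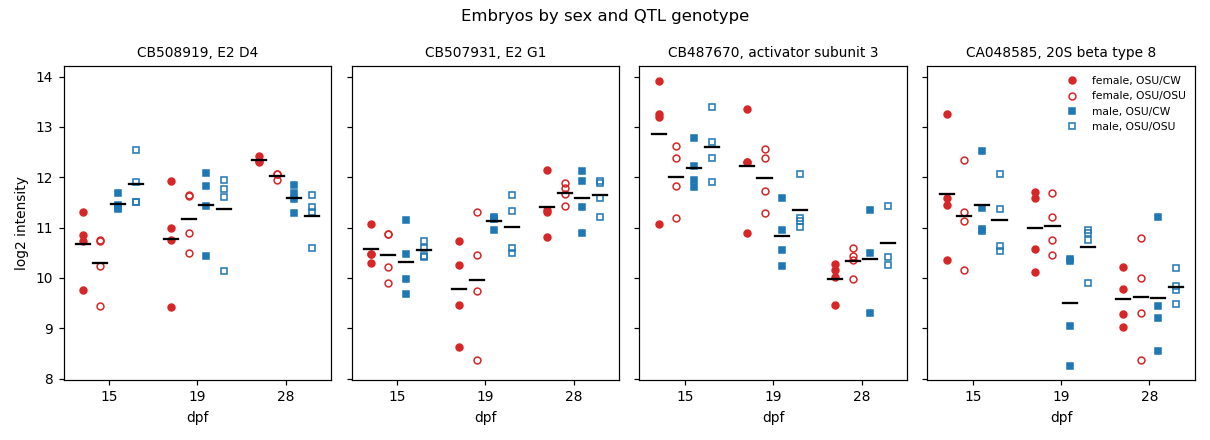
Log2 intensity of each embryo (vertical axis) by age (horizontal axis) for 4 ESTs; red circles are females, blue squares males, filled symbols OSU/CW, open symbols OSU/OSU, and bars are group means. In CB508919 the males lie above the females at 15 dpf (11.36 to 12.54 against 9.45 to 11.31) and below them at 28 dpf (10.59 to 11.84 against 11.95 to 12.42).

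The rule of the methods was also applied within each genotype: a feature had first to pass an overall test at an adjusted p of 0.05 and then an adjusted p of 0.2 over the 66 pairwise contrasts. The overall test covers age as well as sex, and 41 members passed it (15.5% against 13.4% of all features). The pairwise contrasts also include those between ages, so the cutoff for a sex contrast depends on the age contrasts too. By this rule 27 members (10.2%) were called between the sexes in at least 1 of the 6 comparisons, against 9.57% of all features. When the adjustment at 0.2 was made within each comparison without the overall test, 0 members were called. In OSU/CW embryos 4 members were called at 15 dpf (1.52% against 2.76% of all features), 21 at 19 dpf (7.95% against 5.27%) and 2 at 28 dpf (0.758% against 1.13%). In OSU/OSU embryos 3 were called at 15 dpf (1.14% against 1.96%), 9 at 19 dpf (3.41% against 3.13%) and 5 at 28 dpf (1.89% against 1.17%). Without the 3 arrays of lowest signal over background (15, 17 and 41) 9 members were called in place of 27, and without array 22 of the 19 dpf males 17.

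Of the 21 calls in OSU/CW embryos at 19 dpf, 17 were higher in females and 4 in males, while of all features 3.42% were higher in females and 1.85% in males. The Cbl ligase, which acts on receptor tyrosine kinases, was at 10.19, 11.36 and 12.49 in 3 females and at 9.58, 9.78, 9.85 and 9.92 in 4 males, with no overlap (CB512961, fitted difference 1.5 ± 0.43). Beta type 8 EST CA048585 was at 10.11, 10.57, 11.59 and 11.70 in females and at 8.26, 9.04, 10.34 and 10.38 in males, with overlap (1.49 ± 0.49). CB487670 differed by 1.38 ± 0.38 with female values between 10.90 and 13.36 and male values between 10.24 and 11.58. CB507931 went the other way, with females between 8.62 and 10.74 and males between 10.95 and 11.21 and no overlap (-1.36 ± 0.37). Adjusted within this comparison, the limma adjusted p was 0.236 for CB512961, CB487670 and CB507931 and 0.303 for CA048585. Without background subtraction the calls of CB512961, CA048585 and CB507931 were lost, while CB487670 kept its call under 9 alternatives of the processing. CB487670 too was not called when the adjustment at 0.2 was made within this comparison. The call of CB507931 was also lost with loess alone. That of CB512961 was also lost with centred signals, with poor spots kept and without the 3 arrays of lowest signal over background. CB496882, the 19S EST that climbed with age, was called at 19 dpf in both genotypes but in opposite directions, -0.88 ± 0.48 in OSU/CW and 0.99 ± 0.48 in OSU/OSU. Both calls were lost when single arrays were left out, the first without array 11 (-0.79), 15 (-0.72) or 19 (-0.39) and the second without array 27 (0.58) or 29 (0.43).

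CB508919 was called by this rule in 5 of the 6 comparisons. It was not called in any of them when the adjustment was made within each comparison without the overall test. The cutoff of the rule is shared with contrasts between ages, and unadjusted p-values of single comparisons are not given. The number of calls is therefore no repeated evidence of a difference between the sexes. At 15 dpf in OSU/OSU embryos the females were at 9.45, 10.23, 10.74 and 10.75 and the males at 11.50, 11.50, 11.91 and 12.54 (-1.62 ± 0.38). In OSU/CW embryos of that age the females were at 9.76, 10.74, 10.86 and 11.31 and the males at 11.36, 11.39, 11.45 and 11.69 (-0.76 ± 0.38). At 15 dpf most OSU/OSU females were in Cy3 and most OSU/OSU males in Cy5, and the reverse held in OSU/CW. The dye was a term of the fit. At 19 dpf CB508919 was called in OSU/CW only (-0.67 ± 0.38), and the difference between the genotypes was not tested at that age alone. At 28 dpf it was higher in females, by 0.74 ± 0.41 in OSU/CW and 0.81 ± 0.41 in OSU/OSU, each over 3 females and 4 males. The calls at 15 dpf in both genotypes were lost without array 26, 36 or 39, all of 28 dpf females, with differences of -1.63 to -1.62 in OSU/OSU and -0.76 to -0.75 in OSU/CW, and without array 14 of the 15 dpf females. The call at 19 dpf was lost for any 1 of 9 arrays and those at 28 dpf for any 1 of 5 each. Over all arrays left out in turn, the difference at 19 dpf lay between -1.04 and -0.23. At 28 dpf it lay between 0.65 and 0.80 in OSU/CW and between 0.59 and 0.97 in OSU/OSU.

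The comparison of genotypes asked whether the QTL region changed the pathway, and was read within arrays. Over all ages 0 members were called (0% of all features), and 16 had an unadjusted p below 0.05 (6.06% against 4.93% of all features). At 15, 19 and 28 dpf 0 were called at each age (0% of all features at each), with 10, 27 and 8 members below an unadjusted 0.05, or 3.79%, 10.2% and 3.03% against 5.44%, 5.93% and 4.75%. The medians of the members were 0.00, 0.04 and 0.03. At 15 dpf the dyes were balanced over both sexes together but unbalanced within a sex. The OSU/CW embryo was in Cy5 on 3 female arrays and on 1 male array of 4 each, and the dye was a term of the fit.

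UCHL1 EST CA053740 at 28 dpf had the smallest p of these comparisons. Its 7 within-array differences of OSU/CW over OSU/OSU were 0.72, 1.41 and 1.55 on female arrays and 1.29, 0.33, -0.21 and -0.26 on male arrays. They were above 0 on 5 of 7 arrays, and the fitted difference was 0.77 ± 0.17 (limma adjusted p = 0.322). It was called without background subtraction and among features above the negative controls in all channels, with 0.59 to 0.77 over the alternatives. At the same age 17 of 53 red blood cell ESTs had an unadjusted p below 0.05 for genotype, with a median of 0.31 and 0 called, and their part was not tested. At 15 and 19 dpf the EST was above 0 on 4 of 7 and 6 of 8 arrays. UFD1 EST CA055522 at 28 dpf was lower in OSU/CW, by 0.52 on the log2 scale (-0.52 ± 0.14, limma adjusted p = 0.454), with 2 of 7 arrays above 0, and OTUB2 (CA051457) differed by -0.74 ± 0.27 (limma adjusted p = 0.902).

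At 19 dpf the leading members were beta type 1-A (CA060387, 0.50 ± 0.14, above 0 on 5 of 8 arrays, limma adjusted p = 0.608), E2 D2 (CA050947, 0.70 ± 0.22, 6 of 8 arrays, limma adjusted p = 0.675) and E2 N (CB500002, 0.72 ± 0.23, 5 of 7 arrays, limma adjusted p = 0.686). The last 2 exceeded the negative controls in 6 and 4 of 16 channels at that age. Of the 86 muscle ESTs 21 had an unadjusted p below 0.05 for genotype at 19 dpf, with a median of 0.18 and 0 called, and their part in the members' share was not tested. At 15 dpf UCHL3 EST CA054134 differed by -1.05 ± 0.31 (limma adjusted p = 0.672), but 1 array, number 13 of the females, stood at -6.13 while the other 7 lay between -1.08 and 0.15, and the value without it was -0.35. Beta type 4 (CB512698, -0.52 ± 0.16, limma adjusted p = 0.762) and E2 C (CK990895, -0.45 ± 0.17, limma adjusted p = 0.836) followed. Over all ages the leading members were CA053740 (0.30 ± 0.10), CA059951 (0.25 ± 0.08) and CB500002 (0.34 ± 0.12), with limma adjusted p-values of 0.953, 0.953 and 0.959.

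**Figure D5:**
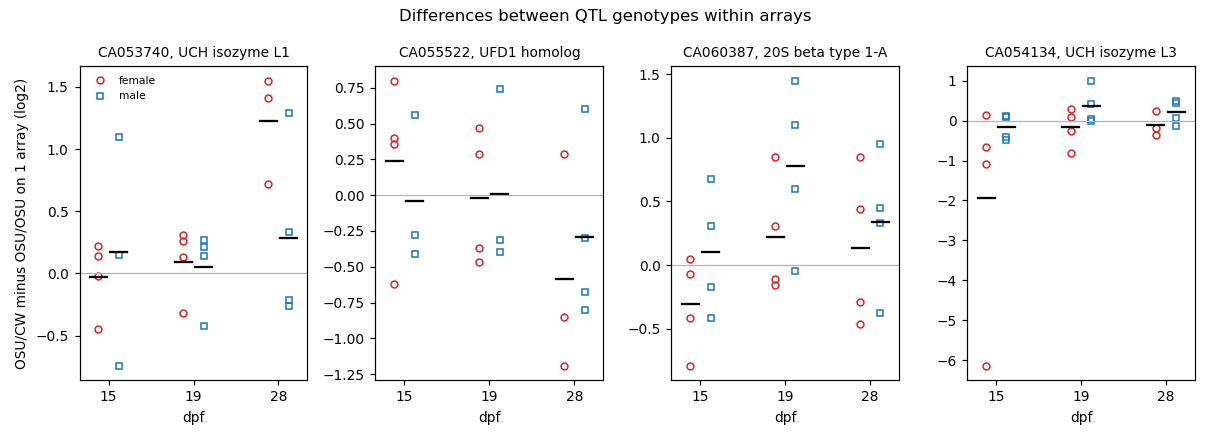
Difference of OSU/CW minus OSU/OSU on each array (vertical axis, log2; scales differ between panels) by age for 4 ESTs; red circles are arrays of females, blue squares arrays of males and bars are means. CA053740 reached 1.55 on a female array at 28 dpf and was below 0 on 2 male arrays, and CA054134 has 1 array at -6.13 at 15 dpf.

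The tests of whether effects depended on each other gave 0 called members each. For sex by time 14 members (5.30%) had an unadjusted p below 0.05 against 6.77% of all features (0.00858% called), for genotype by time 18 (6.82%) against 5.86% (0% called), and for sex by genotype 19 (7.20%) against 6.25% (0% called). After CB508919 the members with the smallest p for sex by time were CB498670 (limma adjusted p = 0.563) and CB493974 (limma adjusted p = 0.605). For genotype by time they were CB512698 (limma adjusted p = 0.771), CA055522 (limma adjusted p = 0.835) and CA053740 (limma adjusted p = 0.841).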

How the data were processed

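The deposited scanner files gave, per the file headers, a mean spot intensity and a mean local background intensity for each dye, made by the authors with their image analysis software, with flags for poor spots. The authors also deposited a table of processed values per array, used here as a score and for no test, because its values are quotients of centred natural logarithms and not log ratios; its column medians lay between -1.10 and 1.07. Intensities were background-corrected with normexp (offset 50) and normalised with loess within arrays and Aquantile between arrays. They were fitted with limma 3.58.1 in R 4.3.3 as log2 values of both channels, with 12 treatments and dye as terms and array as a block (correlation 0.538). A feature was tested if it exceeded the 90th percentile of the negative controls in at least 16 of 48 channels and was measured on 2 or more arrays in every group of sex and age. The 74 members that were not tested had no further use. P-values were adjusted by Benjamini-Hochberg over 11653 features. The labels tie each embryo to 1 channel, so the spread between embryos and that of the measurement cannot be told apart. Comparisons of age and sex lie between arrays, 8 at each age, and their p-values measure the spread between arrays. Comparisons of genotype lie within arrays. In data simulated for the comparison of 28 with 15 dpf, 200 of 11653 features were changed by 1 on the log2 scale, and 48.5% of these were recovered. In the data themselves 4331 features (37.2%) were called. The adjusted cutoff depends on how many features change, so the simulated share does not carry over to the data. The text could name any tested proteasome EST, the 6 members of each ubiquitin list with the smallest p of the overall time test, the 3 members with the smallest p in each comparison of sex or genotype, members called between the sexes by the rule of the methods, and CB508919. Other E2, E3, deubiquitinase and modifier ESTs were named after their values were seen. The members, lists and named ESTs were chosen with earlier results of these data known. The 8 spots of a ubiquitin normalizer are not ESTs and were left out of the tests.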

Additional observations from a re-analysis of the deposited data

Results flagged for a closer look

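In 31 of 417 groups of 4 arrays, each array taken as the mean of its 2 embryos, 1 array of a named EST stood apart from the other 3 by Dixon's criterion. Chance flags about 1 in 20 groups. Among the 15 dpf females, on array 17, CB493483 was at 9.18 (other arrays 10.61 to 10.79) and CA059724 was at 13.64 (other arrays 12.87 to 12.99). Among the 15 dpf females, on array 14, CA059052 was at 13.63 (other arrays 12.04 to 12.20), CA062737 was at 13.15 (other arrays 10.90 to 11.19), CA052560 was at 12.86 (other arrays 11.04 to 11.34), CB512961 was at 11.86 (other arrays 10.75 to 10.86) and CA062750 was at 13.49 (other arrays 12.62 to 12.75). Among the 15 dpf females, on array 35, CA050491 was at 12.08 (other arrays 12.47 to 12.54). Among the 15 dpf males, on array 34, CB496882 was at 8.29 (other arrays 9.14 to 9.30) and CB498670 was at 11.63 (other arrays 11.02 to 11.06). Among the 15 dpf males, on array 41, CA059360 was at 12 (other arrays 11.64 to 11.69) and CA060271 was at 13.15 (other arrays 12.51 to 12.61). Among the 19 dpf females, on array 40, CA045638 was at 11.43 (other arrays 9.80 to 9.91) and CA056843 was at 10.85 (other arrays 9.09 to 9.38). Among the 19 dpf females, on array 29, CA060697 was at 13.76 (other arrays 13.19 to 13.24) and CB514013 was at 12.14 (other arrays 10.99 to 11.13). Among the 19 dpf males, on array 27, CB492588 was at 9.63 (other arrays 11.59 to 11.83). Among the 19 dpf males, on array 11, CA054529 was at 10.33 (other arrays 11.12 to 11.23). Among the 19 dpf males, on array 19, CB499235 was at 11.73 (other arrays 10.31 to 10.41). On array 26 of the 28 dpf females, CB493627 was at 12.51 (other arrays 11.61 to 11.74). On array 39 of the 28 dpf females, CB494252 was at 11.03 (other arrays 11.48 to 11.52) and CB499213 was at 10.89 (other arrays 11.84 to 12.03). On array 38 of the 28 dpf females, CA770072 was at 8.87 (other arrays 11.81 to 12.18) and CB492563 was at 12.23 (other arrays 11.45 to 11.58). On array 23 of the 28 dpf males, CK991268 was at 10.06 (other arrays 14.40 to 15.00) and CA770072 was at 8.95 (other arrays 11.90 to 12.35). On array 37 of the 28 dpf males, CA049845 was at 10.09 (other arrays 10.44 to 10.49) and CA057567 was at 12.01 (other arrays 11.38 to 11.47). On array 28 of the 28 dpf males, CA050766 was at 11.60 (other arrays 11.23 to 11.28) and CB514013 was at 11 (other arrays 9.88 to 10.07). On array 33 of the 28 dpf males, CA056843 was at 10.12 (other arrays 10.63 to 10.71).

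Arrays 23 and 38 at 28 dpf were apart from the other arrays of that age in both CA770072 and CK991268. Array 38 could not be tested in CK991268, which was measured on 3 arrays of its group. The cause was not tested.

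A ubiquitin normalizer spotted undiluted, which was in no comparison, was above the negative controls in 16 of 16 channels at each age. Its signal was 3.39 times their 90th percentile at 15 dpf (median, range 1.48 to 6.80), 5.41 times at 19 dpf (2.08 to 13.91) and 10.19 times at 28 dpf (2.83 to 19.81). At a dilution of 1 in 10 it was above them in 3, 7 and 10 of 16 channels.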

How the results depend on the processing

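The counts of members called for sex and genotype were 0 under all alternatives and all arrays left out, except genotype at 28 dpf, for which 1 member was called without background subtraction and 1 among features above the negative controls in all 48 channels. Between 15 and 19 dpf 8 members were called. The count was 5 with signals minus background centred per channel, 2 with loess alone, 1 among features above the negative controls in all channels, 3 with only the time points compared in the fit and 5 without the 3 arrays of lowest signal over background, an alternative chosen after seeing the data. It lay between 3 (without array 41 of the 15 dpf males) and 11 when arrays were left out. With centred signals 0.379% of members were lower and 1.52% higher, against 0.0945% and 1.38% of all features. With loess alone these shares were 0% and 0.758%, against 0% and 0.832%. Between 19 and 28 dpf 53 were called, 22 without background subtraction, 30 with centred signals, 146 with loess alone, 5 among features above the negative controls in all channels and 34 (without array 27 of the 19 dpf males) to 62 with arrays left out. Without background subtraction 6.06% of members were lower and 2.27% higher, against 3.82% and 4.87% of all features. Among features above the negative controls in all channels 15.2% of members were lower and 0% higher, against 9.98% and 2.67%. Between 15 and 28 dpf 97 were called, 58 without background subtraction, 10 of 33 among features above the negative controls in all channels and 86 to 110 with arrays left out. Without background subtraction 17% of members were lower and 4.92% higher, against 13.4% and 12.9% of all features. Among features above the negative controls in all channels these shares were 24.2% and 6.06%, against 18.7% and 8.86%. The median there was -0.07 for the members and -0.11 for all features. Centred signals moved the median of all features by 0.23 over that interval. By the rule of the methods 27 members were called, 9 without background subtraction, 45 with loess alone, 1 among features above the negative controls in all channels, 0 with an adjusted p of 0.2 within each comparison, 9 without the 3 arrays of lowest signal and 17 (without array 22 of the 19 dpf males) to 36 with arrays left out.

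With loess alone the difference between 28 and 15 dpf turned negative for CA049968 (-0.33), CB494252 (-0.29), CB492588 (-0.59), CB492563 (-0.03), CA053284 (-0.02), CA056463 (-0.02), CB499235 (-0.04), CA057567 (-0.16) and CA054134 (-0.31). CA054134 was also at -0.08 without background subtraction. Values near 0 changed sign for CB518102 (0.20 without background subtraction, 0.10 with centred signals, 0 with quantile normalisation, 0.28 without arrays 23 and 38), CA048031 (0.52 with centred signals, 0 with quantile normalisation, 0.03 without arrays 23 and 38), CB515805 (0.10 without arrays 23 and 38) and CA049968 (0 with poor spots kept). With arrays left out, they lay between -0.21 and 0.20 for CB518102, between -0.17 and 0.11 for CA048031, between -0.21 and 0.06 for CB515805, between -0.03 and 0.22 for CA049968 and between -0.02 and 0.42 for CB492588. The alternative without arrays 23 and 38 was also chosen after seeing the data. No other named value changed direction under an alternative. Arrays could not be paired between groups of sex and age, because array numbers are not shared between groups. The 2 embryos of an array were kept together as a block in the fits, except in the alternative on array means. Signal over background was lowest at 15 dpf (median 1.52, against 1.73 at 19 dpf and 2.45 at 28 dpf), and its part in the size of rises was not tested.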
